A study of Mus musculus with 4 samples.

Results

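Transcripts of 9 genes of the TAM receptors and apoptotic cell uptake were followed across the immune cells of tumour ascites, spleen and blood. They were chosen by name out of the 32285 genes in the count table. No measured value was in the rule, but earlier results of these data were known. The genes are the receptor tyrosine kinases Mertk, Axl and Tyro3, the bridging ligands Gas6, Pros1 and Mfge8, the phosphatidylserine receptors Timd4 and Stab1, and the integrin subunit Itgav. B6 mice carrying BeCon tumours, an ovarian cancer model by the title of the series, received the salt-inducible kinase inhibitor YKL-05-099 (treated mice) or its vehicle. Viable CD45+ MHCI+ cells were sorted, tagged with a hashtag antibody for each mouse and tissue, and read as 10x Genomics 3' droplet libraries. All ascites cells, from 4 vehicle and 4 treated mice, shared 1 library, and spleen and blood cells of vehicle mice 1 to 3 and treated mice 2 to 4 shared another. The mouse, arm and tissue of each cell rest on the deposited hashtag notes, which give no age, dose or treatment time. Each of the values below is a level in CPM, the UMIs (unique transcript molecules) of a gene per 1000000 UMIs of all genes, summed over the cells of 1 class in 1 mouse.

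Dying cells expose phosphatidylserine on their outer membrane, and phagocytes find them by it. Gas6 and Pros1 bind phosphatidylserine with one end and TAM receptors with the other, so that the kinase is activated where a dying cell touches the phagocyte. Mfge8 makes a similar bridge to integrins that contain the αV subunit, which Itgav encodes. Timd4 and Stab1 bind phosphatidylserine directly and serve as tethers. In macrophages Mertk is the main TAM receptor for engulfment, and TAM signalling is also known to restrain inflammatory responses of macrophages and dendritic cells. Timd4 is widely used as a marker of resident macrophages of the body cavities.

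All 9 genes matched a RefSeq promoter of build GRCm38.p6, of the same assembly as the mm10 genome of the counts. The 250 bases before the start are shown for Mertk and Axl, the TAM receptors whose transcripts fell together in macrophages, and for Timd4. Timd4 was called higher in conventional dendritic cells of treated ascites, a call lost under some other settings. Mertk lies on the plus strand at chr2:128698956-128802894, Axl on the minus strand at chr7:25757273-25788705 and Timd4 on the plus strand at chr11:46810800-46844332 (GENCODE M21 gene bounds). The stretches printed, each in the direction of its gene, are chr2:128698665-128698914, chr7:25788734-25788983 and chr11:46810549-46810798, upstream of the transcript. Capitals mark a GC box (GGGCGG) or an ETS and IRF composite element (GGAA and GAAA, 2 bases apart), each searched on both strands.

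Mertk: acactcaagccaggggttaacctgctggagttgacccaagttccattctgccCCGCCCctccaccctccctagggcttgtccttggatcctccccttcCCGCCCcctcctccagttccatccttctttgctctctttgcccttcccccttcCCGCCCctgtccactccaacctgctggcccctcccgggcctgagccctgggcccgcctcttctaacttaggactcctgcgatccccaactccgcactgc

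Axl: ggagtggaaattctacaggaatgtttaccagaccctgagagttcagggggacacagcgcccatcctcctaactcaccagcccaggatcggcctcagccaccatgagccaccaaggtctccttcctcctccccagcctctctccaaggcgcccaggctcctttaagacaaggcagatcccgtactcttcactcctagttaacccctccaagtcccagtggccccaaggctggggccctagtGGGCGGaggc

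Timd4: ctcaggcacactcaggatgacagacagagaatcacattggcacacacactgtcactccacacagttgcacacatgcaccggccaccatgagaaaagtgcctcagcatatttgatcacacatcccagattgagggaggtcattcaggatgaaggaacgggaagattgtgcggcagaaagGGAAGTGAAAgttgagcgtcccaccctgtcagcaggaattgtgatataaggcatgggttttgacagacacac

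The Mertk and Axl stretches held 63.6% and 60.0% G and C, against a median of 52.4% over 32851 promoters and 50% in Timd4. A GC box stood in 6 of the 9 genes (Mertk, Axl, Tyro3, Gas6, Pros1 and Mfge8) and in 32.74% of all promoters. Timd4 held no GC box but was the 1 member with the composite element, 72 bases before its start, a motif found in 2.3% of all promoters. The full cAMP response element TGACGTCA, the sequence that CREB binds, was in 0 of the 9 stretches and in 1.55% of all. Its shorter form TGACG was in 0 of the 9 and in 17.77% of all. Neither the MEF2 site (CTA and TAG, 4 bases apart) nor the LXR and RXR repeat (AGGTCA repeated, 4 bases apart) was in any of the 9, against 3.2% and 0.02% of all promoters.

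The ascites library held 134034611 UMIs over 13688 barcodes and the spleen and blood library 92064806 over 14792, and 52 barcode sequences occurred in both. After quality filters and hashtag assignment with HTODemux, 4368 cells of ascites and 5682 of spleen or blood were left. Classes were gated on marker genes that include none of the 9 members. The macrophage gate (C1qa, C1qb, C1qc, Adgre1, Csf1r) held 522 vehicle and 218 treated ascites cells, 46 to 156 per mouse, with 524419 to 3005471 UMIs per mouse. HTODemux called 2042 further macrophage-gated barcodes doublets, of which 974 carried 20 or more hashtag UMIs, 80% or more of them from a single tag. Values from all cells that meet this hashtag fraction rule are therefore given where they add a class or change a call. Free RNA of the ascites library, read from 2507 hashtag-negative barcodes of low depth, held 63.2 CPM of Mertk, 78.1 CPM of Axl, 101.6 CPM of Gas6 and 732.0 CPM of Stab1. It held 32.7 CPM each of Pros1 and Timd4, 30.4 CPM of Itgav and 10.9 CPM of Mfge8. The levels of Itgav and Mfge8 in treated macrophages, given below, lie near or under these values. These barcodes had passed the quality filters, so damaged cells among them were not told apart from free RNA. The part of free RNA in the macrophage levels below was not tested.

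In vehicle ascites most members were higher in macrophages than in conventional dendritic cells, the classes compared here. Of the 8 members tested, 7 were higher in macrophages than in cDC1, the cross-presenting dendritic cells, and 7 were higher than in cDC2, the other conventional dendritic cells. In the same contrasts 52.0% and 42.5% of all genes tested were called, 26.9% and 22.8% as higher in macrophages. Mertk had 1134 UMIs in 522 vehicle macrophages but 2 UMIs in 155 cDC1 and 3 UMIs in 144 cDC2 cells, below the level that free RNA would give there. Gas6 was higher in macrophages by 5.74 ± 0.28 on the log2 scale against cDC1 and by 4.96 ± 0.26 against cDC2 (log2 fold change ± SE, edgeR adjusted p = 2.12e-15 and 8.42e-15). Axl was higher by 4.65 ± 0.27 and 2.82 ± 0.26 (edgeR adjusted p = 9.36e-14 and 5.21e-09). These are differences of 1 gene between classes, and the 3' counts are not compared between genes here.

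Mfge8 ran the other way in cDC2, as did 19.8% of all genes tested. Its levels in cDC2 of vehicle mice 1 to 4 were 40.4, 25.9, 34.0 and 21.4 CPM, and in macrophages 12.2, 10.6, 15.6 and 29.6 CPM. Vehicle mouse 4 was the highest of the macrophages and the lowest of the cDC2, and the classes overlapped through it. The macrophage level was lower by 1.04 ± 0.30 on the log2 scale (difference -1.04, edgeR adjusted p = 0.00714), and without vehicle mouse 1 it was -0.71 with an adjusted p of 0.141. No difference in Timd4 was called between macrophages and cDC1 (0.43 ± 0.49, edgeR adjusted p = 0.509), but single mice moved the difference, to -0.12 without vehicle mouse 1 and to 1.24 without vehicle mouse 4 (edgeR adjusted p = 0.0261). Against cDC2 it was higher in macrophages, by 2.13 ± 0.35 (edgeR adjusted p = 1.02e-05). Stab1 in cDC1 and cDC2 stood at 20.6 and 36.0 CPM, where free RNA alone would give 21.8 and 36.7 CPM.

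Within vehicle macrophages, 4 subsets gated on other genes carried different members, as the plot of levels by vehicle subset shows. Cells of the Prg4 Alox15 Selp gate, genes of resident peritoneal macrophages, had little Axl and Gas6 and much Pros1 and Mfge8. Axl in this subset was 15.8, 34.1, 10.4 and 52.6 CPM in vehicle mice 1 to 4, from 8, 9, 16 and 50 cells. In the Cx3cr1 Fcrls Ms4a7 subset Axl was 137.7, 139.3, 188.2 and 199.1 CPM, so that every mouse of it lay above every mouse of the Prg4 subset. Pros1 had the reverse order, with 205.8, 119.2, 107.5 and 167.7 CPM in the Prg4 subset and 11.9, 29.3, 25.2 and 26.6 CPM in the Cx3cr1 subset. Mfge8 was 71.2, 34.1, 41.6 and 51.7 CPM in the Prg4 subset, above every mouse of the other 3 subsets, which spanned 0 to 24.1 CPM. These subset levels are descriptions, with no test, and 3 of the 4 mice in the Prg4 subset and all 4 in the Lyve1 subset (11 to 15 cells) had fewer than 20 cells.

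Mertk was present in all 4 subsets. It was 71.2, 90.4, 103.4 and 72.3 CPM in the Cx3cr1 subset and 164.7, 178.2, 189.0 and 204.9 CPM in the Lyve1 Marco Cd163 subset. The Gpnmb Ltc4s Raph1 subset, at 120.8 to 159.0 CPM, and the Prg4 subset, at 102.9 to 187.2 CPM, overlapped each other, and the Prg4 subset also overlapped both others. Timd4 was 63.1, 57.5, 54.6 and 201.0 CPM in the Lyve1 subset and 197.9, 79.5, 38.1 and 78.0 CPM in the Prg4 subset. The Cx3cr1 subset held 0, 7.3, 2.6 and 2.5 CPM of Timd4, below every mouse of those subsets. Gas6 was 285.6, 218.3, 263.5 and 187.3 CPM in the Gpnmb subset and 0 to 37.0 CPM in the Prg4 subset, without overlap.

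**Figure D1:**
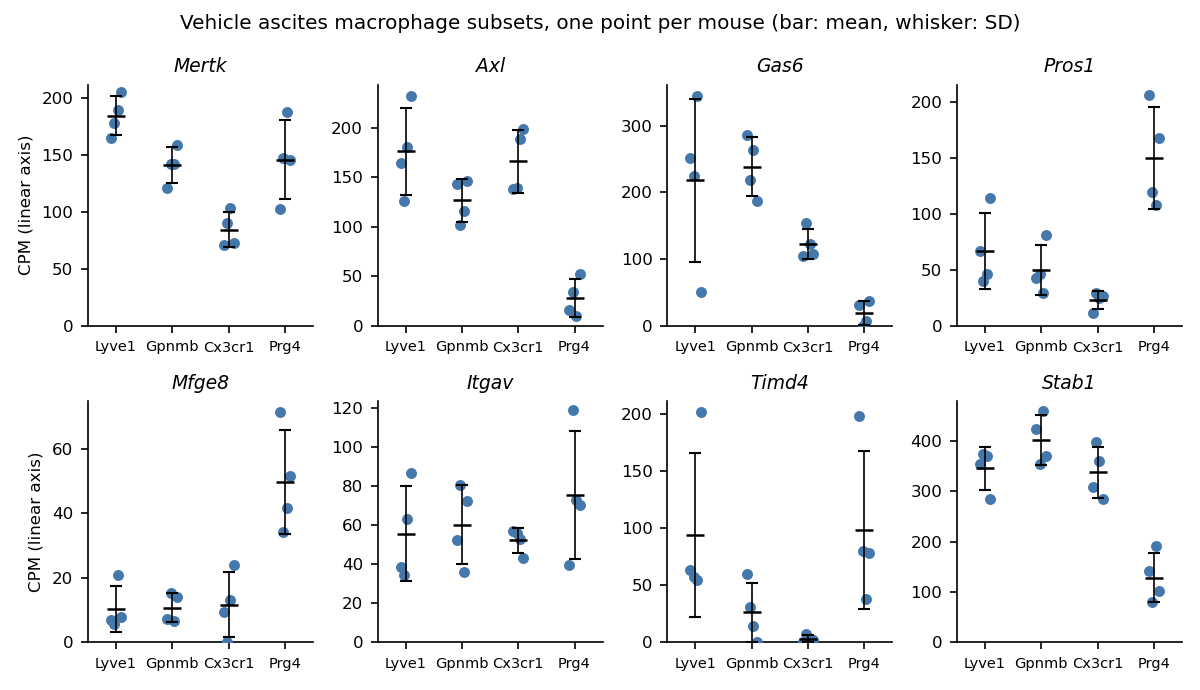
Levels of 8 members in CPM (linear axes) in the 4 gated macrophage subsets of vehicle ascites, with 1 point per mouse (n = 4), the mean as a bar and the SD as whiskers. In the Prg4 subset Axl (10.4 to 52.6 CPM) and Gas6 (0 to 37.0 CPM) sit below the other subsets, and Pros1 (107.5 to 205.8 CPM) and Mfge8 (34.1 to 71.2 CPM) sit high.

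Transcripts of TAM receptors, bridging ligands and the αV integrin subunit were lower in ascites macrophages of treated mice. Of the 9 members 8 passed the filter on low counts, 5 fell (Mertk, Axl, Gas6, Mfge8, Itgav) and 0 rose, at an adjusted p under 0.05. Among all 7867 genes tested 13.9% were called, and 7.05% of the genes tested were called lower and 6.84% higher. The median change of the 8 members was -1 on the log2 scale, against 0.01 over all genes tested.

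Mertk stood at 115.7, 123.1, 132.3 and 127.4 CPM in vehicle mice 1 to 4 and at 74.4, 59.9, 69.8 and 43.9 CPM in treated mice 1 to 4. Every treated mouse lay below every vehicle mouse. The log2 fold change was -0.95 ± 0.15 (SE, edgeR adjusted p = 0.000328), from a mean of 124.6 ± 7.04 to 62.0 ± 13.5 CPM (SD, n = 4 each). Axl stood at 135.0, 101.9, 138.6 and 135.4 CPM in vehicle mice and 100.1, 84.2, 58.2 and 70.6 CPM in treated mice. Vehicle mouse 2 was close to treated mouse 1, yet the arms did not overlap. Its log2 fold change was -0.68 ± 0.16 (edgeR adjusted p = 0.00738). For Mertk and Axl the call held with each of the 8 mice left out, at -1.08 to -0.85 and -0.87 to -0.58. Tyro3, the TAM receptor best known from the nervous system, had 2 UMIs in the 522 vehicle cells, 0.67 CPM in vehicle mouse 4, and 0 in the 218 treated cells, which allows up to 1.15 CPM (counting error only).

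Among the bridging ligands, Gas6 stood at 182.7, 166.1, 165.2 and 94.8 CPM in vehicle mice and 98.8, 99.2, 72.4 and 72.5 CPM in treated mice. Vehicle mouse 4 lay within the treated range, and the other vehicle mice lay above it. The log2 fold change of Gas6 was -0.79 ± 0.20 (edgeR adjusted p = 0.0163), and without treated mouse 3 or 4 the adjusted p was 0.0564 or 0.0545. Mfge8 was low, at 12.2, 10.6, 15.6 and 29.6 CPM in vehicle mice and 2.6, 3.7, 7.8 and 7.6 CPM in treated mice. Every treated mouse lay below every vehicle mouse. Its log2 fold change was -1.68 ± 0.50 (edgeR adjusted p = 0.0372), and without any 1 of the 4 treated mice the adjusted p was 0.0626 to 0.123, while without a vehicle mouse it fell below the low-count filter. Pros1 did not pass (-1.05 ± 0.48, edgeR adjusted p = 0.206), with 50.2, 46.0, 36.7 and 97.8 CPM in vehicle mice and 46.2, 28.1, 16.8 and 17.2 CPM in treated mice. For Pros1 treated mouse 1 lay inside the vehicle range and the other 3 treated mice below it.

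Itgav had the smallest adjusted p of the 9 members in macrophages. It stood at 58.9, 66.6, 50.1 and 64.2 CPM in vehicle mice and 20.5, 26.2, 23.3 and 30.5 CPM in treated mice. The arms were far apart, with the lowest vehicle mouse above the highest treated mouse. The log2 fold change was -1.25 ± 0.19 (edgeR adjusted p = 0.000193). Of the phosphatidylserine receptors, Timd4 was 50.8, 30.0, 14.8 and 47.9 CPM in vehicle mice and 0, 1.9, 20.7 and 3.8 CPM in treated mice. Treated mouse 3 lay inside the vehicle range, and Timd4 did not pass (-2.28 ± 0.89, edgeR adjusted p = 0.158), while without treated mouse 3 it was -4.4 with an adjusted p of 0.0497. Stab1 was 341.5, 329.3, 333.7 and 243.6 CPM in vehicle mice and 270.8, 460.3, 267.7 and 440.5 CPM in treated mice. The arms overlapped, and the log2 fold change was 0.22 ± 0.17 (edgeR adjusted p = 0.439).

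**Figure D2:**
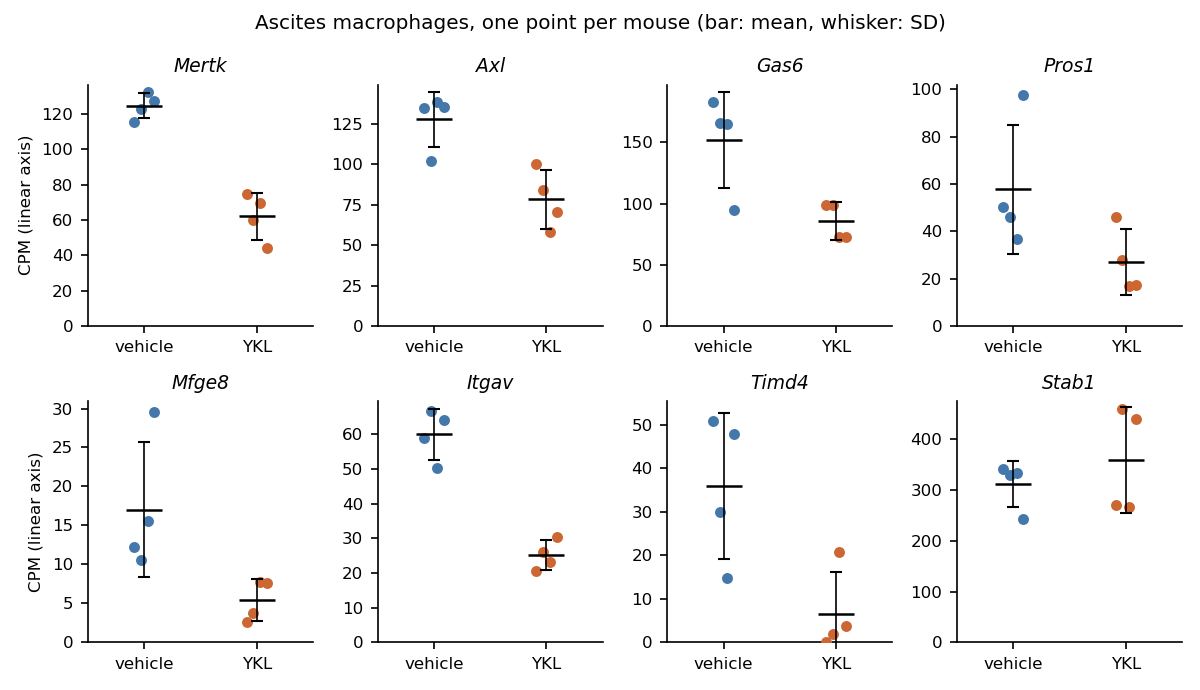
Levels of 8 members in CPM (linear axes) in ascites macrophages of 4 vehicle and 4 treated (YKL) mice, with 1 point per mouse, the mean as a bar and the SD as whiskers. The arms do not overlap for Mertk, Axl, Mfge8 and Itgav, overlap through vehicle mouse 4 for Gas6 (94.8 CPM), and overlap for Pros1, Timd4 and Stab1.

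Other features of the gated macrophages moved with the arm. Their median UMIs per cell were 16520 ± 1324 in vehicle and 10250 ± 923 in treated mice (mean ± SD over 4 mice each). The summed macrophage markers, 5 of 5 detected in both arms, were 10030 to 10910 CPM in vehicle and 7703 to 9216 CPM in treated mice. The summed Lyve1, Marco and Cd163 level was 957.8 to 1651 CPM in vehicle and 137.3 to 449.0 CPM in treated mice, and the Prg4, Alox15 and Selp level 607.5 to 3003 and 9.4 to 40.1 CPM. By cells, the vehicle macrophages were 51 of the Lyve1, 144 of the Cx3cr1, 135 of the Gpnmb and 83 of the Prg4 gate, and the treated ones 4, 36, 115 and 0, with 109 and 63 in no subset. With cells of at most 5% mitochondrial UMIs, which leaves 3 treated mice, Mertk and Itgav kept their calls and Axl (-0.41 ± 0.23, edgeR adjusted p = 0.288), Gas6 (-0.81 ± 0.26, edgeR adjusted p = 0.0637) and Mfge8 (-1.42 ± 0.63, edgeR adjusted p = 0.182) did not. The part of depth in these results was not tested, and values within single subsets follow.

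Inside the Gpnmb Ltc4s Raph1 subset, the only one with at least 20 cells in every mouse, the falls of Mertk, Axl, Gas6 and Itgav were still present. Mfge8, which also fell in all gated macrophages, was not among the members tested here. In vehicle mice Mfge8 was highest in the Prg4 gate, which held no treated cells. The part of the subset mix in its fall was not tested. Of 6 members tested 4 fell (Mertk, Axl, Gas6, Itgav) and 0 rose, where 8.85% of 5299 genes were called and 5.02% were lower. The median change of the 6 was -0.99 on the log2 scale, against 0.01 over all genes. The subset held 28 to 40 cells per vehicle mouse and 22 to 32 per treated mouse.

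Axl in the Gpnmb subset was 143.5, 101.5, 116.2 and 146.7 CPM in vehicle mice and 40.7, 47.8, 42.02 and 47.8 CPM in treated mice. The treated mice were tightly grouped and far below the lowest vehicle mouse. The log2 fold change was -1.49 ± 0.20 (edgeR adjusted p = 7.85e-05). Mertk was 120.8, 141.7, 142.4 and 159.0 CPM in vehicle and 79.2, 67.4, 90.3 and 58.0 CPM in treated mice, again without overlap, a change of -0.87 ± 0.19 (edgeR adjusted p = 0.00514). Gas6, the TAM ligand, went from 285.6, 218.3, 263.5 and 187.3 CPM to 126.3, 103.9, 100.8 and 95.6 CPM, a change of -1.12 ± 0.17 (edgeR adjusted p = 0.000361). Itgav went from 52.6, 80.4, 36.0 and 72.4 CPM to 19.3, 22.5, 23.1 and 17.1 CPM, a change of -1.49 ± 0.30 (edgeR adjusted p = 0.00361). For both genes every treated mouse lay below every vehicle mouse. All 4 calls held with each mouse left out in turn. Pros1 (-0.62 ± 0.34, edgeR adjusted p = 0.292) and Stab1 (0.07 ± 0.16, edgeR adjusted p = 0.858) did not pass.

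Within this gate the summed Gpnmb, Ltc4s and Raph1 level was 970.4 to 1252 CPM in vehicle and 898.9 to 1855 CPM in treated mice. The summed level of the 5 macrophage markers was 9720 to 10860 CPM in vehicle and 7607 to 9127 CPM in treated mice, and the Lyve1, Marco and Cd163 level 687.5 to 852.5 and 228.8 to 614.5 CPM. The arms of this subset thus differ in more genes than the members, and the part of those differences was not tested. Under the hashtag fraction rule, with 344 vehicle and 377 treated cells of this subset, the same 4 members fell and Mfge8 joined them (-1.24 ± 0.40, edgeR adjusted p = 0.0361), where 17.3% of 8337 genes were called. Axl was then -1.65 ± 0.14 (edgeR adjusted p = 4.54e-08).

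In the Cx3cr1 Fcrls Ms4a7 subset Mertk fell, while Axl did not pass the test. The subset held 5 to 12 cells per treated mouse, too few for a test, and was tested under the hashtag fraction rule, which left 53 to 94 cells per vehicle and 15 to 35 per treated mouse, with a minimum of 10 cells chosen after the data were seen. Axl was then 162.1, 136.9, 172.5 and 190.0 CPM in vehicle mice and 161.8, 159.2, 113.6 and 122.2 CPM in treated mice. Treated mice 1 and 2 lay inside the vehicle range and treated mice 3 and 4 below it. The log2 fold change was -0.15 ± 0.16 (edgeR adjusted p = 0.707). Mertk was 68.9, 104.8, 112.6 and 71.3 CPM in vehicle and 49.8, 47.9, 62.0 and 37.6 CPM in treated mice, with no overlap. It was the 1 of 6 members called, at -0.83 ± 0.23 (edgeR adjusted p = 0.0423), where 4.79% of 6621 genes were called. With the planned minimum of 20 cells, met by 2 treated mice, 0 of 7 members passed with edgeR and 1, Mertk, had an unadjusted p under 0.05 (-0.85 ± 0.28, edgeR adjusted p = 0.173, unadjusted p = 0.00839), where 1.67% of 8018 genes were called. Gas6 (-0.96 ± 0.29, edgeR adjusted p = 0.0893) and Itgav (-0.10 ± 0.26, edgeR adjusted p = 0.915) did not pass with 10 cells.

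The difference between the subsets was tested itself, as an interaction of subset and arm with the mouse as a block, a comparison added after the data were seen. The Axl change in the Gpnmb subset was more negative than in the Cx3cr1 subset by 1.51 on the log2 scale (-1.51 ± 0.18, edgeR adjusted p = 2.97e-05, 4 mice per arm). Axl was the 1 of 7 members called, among 31 of 8044 genes, or 0.385%. It passed with each of the 8 mice left out, at -1.61 to -1.35. With HTODemux cells and at least 10 cells per mouse, which leaves 2 treated mice in the Cx3cr1 subset, it was -1.30 ± 0.39 and did not pass (edgeR adjusted p = 0.345), where 0.0842% of genes were called. For Mertk the same interaction was -0.36 ± 0.26 (edgeR adjusted p = 0.752), so no difference between the subsets was called. Itgav was -1.06 ± 0.32 (edgeR adjusted p = 0.22) and passed without treated mouse 1 (-1.35, edgeR adjusted p = 0.0461).

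**Figure D3:**
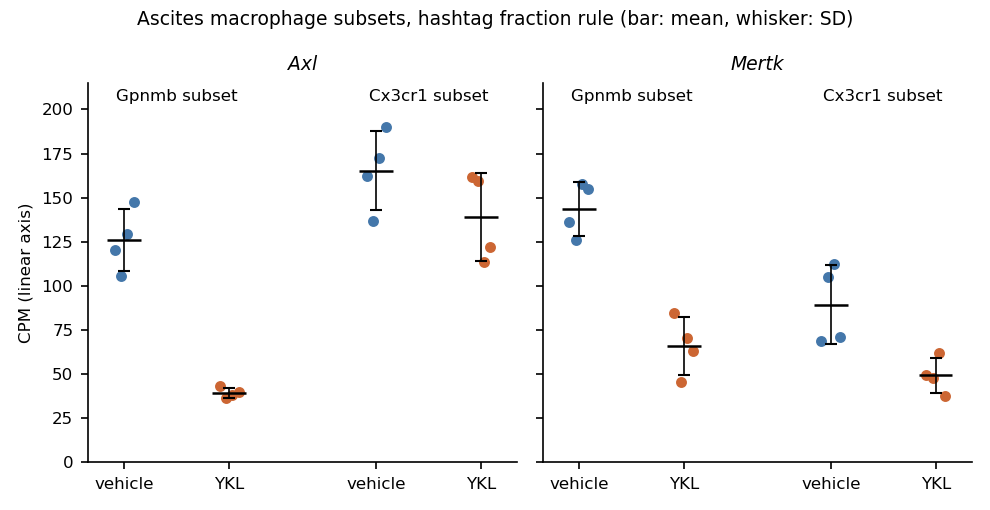
Axl and Mertk in CPM (linear axis) in the Gpnmb and Cx3cr1 macrophage subsets of ascites under the hashtag fraction rule, with 1 point per mouse (n = 4 per arm), the mean as a bar and the SD as whiskers. Axl separates the arms in the Gpnmb subset and not in the Cx3cr1 subset, where treated mice span 113.6 to 161.8 CPM, while Mertk separates them in both.

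**Figure D4:**
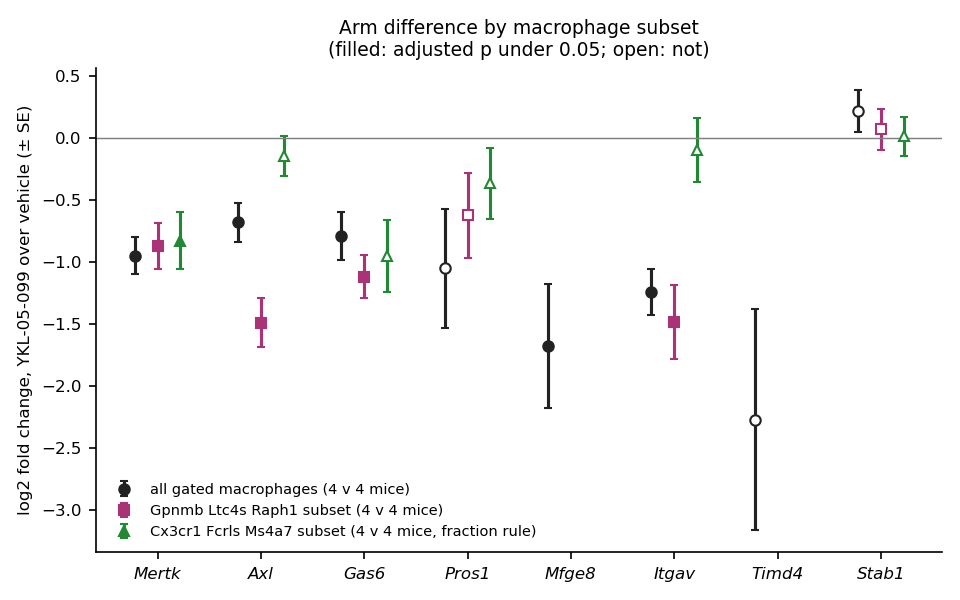
Log2 fold change of treated (YKL-05-099) over vehicle mice with its SE for each member in all gated macrophages, in the Gpnmb subset and, under the hashtag fraction rule with at least 10 cells, in the Cx3cr1 subset, with 4 mice per arm in each. Filled symbols passed an edgeR adjusted p of 0.05 and open ones did not, and a missing symbol was too low to test. Axl lies at -1.49 in the Gpnmb subset and -0.15 in the Cx3cr1 subset, and Mertk between -0.95 and -0.83 in all 3.

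In the conventional dendritic cells of treated ascites Timd4 was called higher. It was the 1 of 3 members called in cDC1, where 15.7% of 5149 genes were called and 7.67% were higher. It was also the 1 of 4 called in cDC2, where 4.33% of 5015 genes were called and 2.15% were higher. Timd4 encodes TIM-4, a tether on the phagocyte surface that binds the phosphatidylserine exposed by dying cells. Of the members tested in these classes no other passed with all mice in the fit.

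In cDC1 Timd4 was 11.2, 5.6, 21.4 and 59.2 CPM in vehicle mice 1 to 4 and 82.9, 179.8, 205.8 and 155.1 CPM in treated mice 1 to 4. The arms did not overlap, with vehicle mouse 4 the highest of its arm and treated mouse 1 the lowest of the other. The sums were 76 Timd4 UMIs in 155 vehicle cells and 367 in 125 treated cells. The log2 fold change was 2.58 ± 0.59 (edgeR adjusted p = 0.0305). Its size held but the call was lost with no low-count filter (2.57, edgeR adjusted p = 0.0759) and with the stricter gate (2.60, edgeR adjusted p = 0.0823). Without 1 of 6 mice (vehicle mice 1 to 3, treated mice 2 to 4) the change kept its direction, at 2.22 to 2.57, and the adjusted p was 0.0612 to 0.0863. Without vehicle mouse 4 it was 3.59 (edgeR adjusted p = 0.000106). Free RNA would give 0.98 and 0.92 CPM of Timd4 in these cells, judged by their C1q transcripts. The summed macrophage markers in the cDC1 gate were 163.5 to 216.2 CPM in vehicle and 135.8 to 183.9 CPM in treated mice, the 5 cDC1 markers 805.9 to 1053 and 573.2 to 685.1 CPM, and median UMIs per cell 19700 and 18410. The part of the lower cDC1 markers in this result was not tested.

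In cDC2 Timd4 was 6.0, 3.7, 7.4 and 12.2 CPM in vehicle mice 1 to 4. The treated mice 1 and 3, with 33 and 30 cells, had 38.7 and 48.7 CPM. Both lay above all 4 vehicle mice, and the log2 fold change was 2.52 ± 0.51 (edgeR adjusted p = 0.00156, 4 against 2 mice). Treated mice 2 and 4 had 11 cells each, below the minimum of 20, and stood at 0 and 57.3 CPM. With these mice included Timd4 fell below the filter on low counts and was not tested, and under the hashtag fraction rule the change was 1.40 ± 0.43 (edgeR adjusted p = 0.0436, 4 against 3 mice), where 8.9% of 5765 genes were called. Without treated mouse 3 it was 2.37 (edgeR adjusted p = 0.157), a fit with 1 treated mouse, which is assumed to vary like the vehicle mice. The migratory dendritic cell markers in the cDC2 gate were 44.4 to 121.1 CPM in vehicle and 118.3 to 279.9 CPM in the treated mice, and their part was not tested.

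The change of Timd4 differed between macrophages and dendritic cells by the test of that difference, although the macrophage change alone did not pass. The change in macrophages was more negative than in cDC1 by 4.99 on the log2 scale (-4.99 ± 0.91, edgeR adjusted p = 0.0285), the 1 of 7 members called where 5.89% of genes were called. Against cDC2 it was -4.30 ± 0.79 (edgeR adjusted p = 0.00978), the 1 of 8 members called where 1.82% were. Leaving out 1 mouse moved the cDC1 value between -6.81 and -4.45, and it did not pass without vehicle mouse 2 or treated mouse 2 or 4 (edgeR adjusted p = 0.0597, 0.0516 and 0.0776). For cDC2 the range was -10.74 to -3.32, both ends from fits with 1 treated mouse, with -10.74 without treated mouse 3, the macrophage value furthest from its arm, and the call was lost without vehicle mouse 1 (edgeR adjusted p = 0.0533). Under the hashtag fraction rule the differences were -5.09 (edgeR adjusted p = 0.0105) and -3.23 (edgeR adjusted p = 7.4e-05), where 8.46% and 4.49% of genes were called. Macrophage sums pool the subsets, and vehicle Timd4 was higher in the Lyve1 and Prg4 gates than in the Cx3cr1 gate. The Lyve1 gate held 51 vehicle but 4 treated cells, and the Prg4 gate held no treated cells. Inside the Gpnmb subset Timd4 was too low to test with all mice in the fit. In 5 fits with 1 mouse left out it was -1.54 to -0.69 there and did not pass. The part of the subset mix was not tested.

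**Figure D5:**
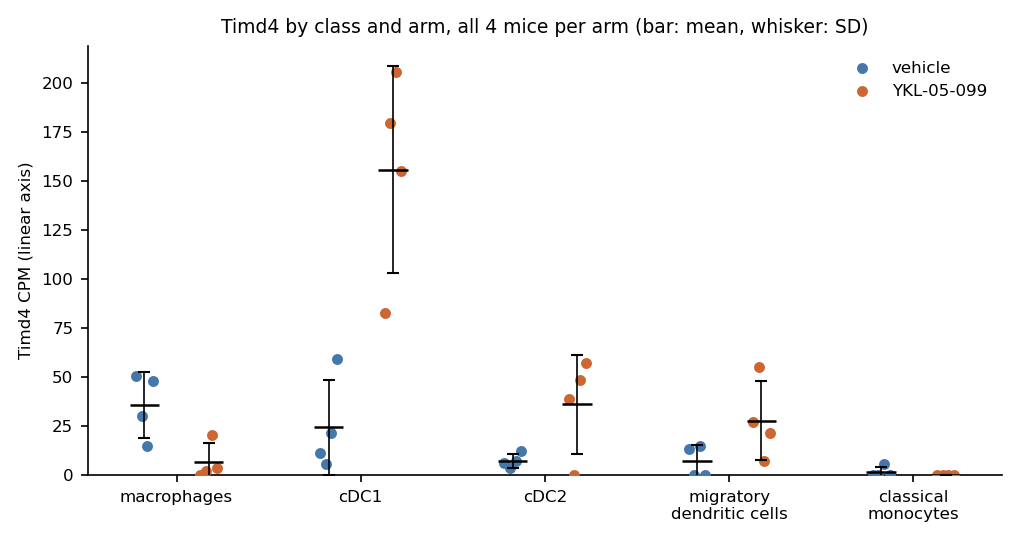
Timd4 in CPM (linear axis) in 5 ascites classes of 4 vehicle and 4 treated mice, with 1 point per mouse, the mean as a bar and the SD as whiskers, including mice with fewer than 20 cells. Treated cDC1 (82.9 to 205.8 CPM) lie above vehicle cDC1 (5.6 to 59.2 CPM), while 3 of the 4 treated macrophage values lie between 0 and 3.8 CPM.

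Levels of Itgav, Axl, Mfge8, Mertk and Stab1 in dendritic cells follow. In cDC1 Itgav was 22.4, 24.4, 35.04 and 32.0 CPM in vehicle and 17.6, 15.9, 30.2 and 17.0 CPM in treated mice, where free RNA would give 0.91 and 0.85 CPM. The arms overlapped through treated mouse 3 (-0.44 ± 0.28, edgeR adjusted p = 0.327). In cDC2 Axl was 13.5, 7.4, 10.3 and 45.8 CPM in vehicle and 27.3, 0, 60.9 and 31.8 CPM in treated mice, and overlapped. Over treated mice 1 and 3, which had enough cells, the change was 1.29 ± 0.50 (edgeR adjusted p = 0.194), and without vehicle mouse 4, the highest of its arm, it passed at 1.91 (edgeR adjusted p = 0.0113). Mfge8 in cDC2, which carried more of it than macrophages did, was 29.6 and 36.5 CPM in treated mice 1 and 3, inside the vehicle range of 21.4 to 40.4 CPM. Mertk had 0 UMIs in 85 treated cDC2 cells, which allows up to 2.56 CPM. Stab1 in treated cDC1 and cDC2 stood at 20.7 and 36.7 CPM, beside 20.6 and 34.0 CPM from free RNA.

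The Axl change in classical monocytes differed from that in macrophages. Under the hashtag fraction rule, with 3 vehicle and 4 treated mice of at least 20 cells, Axl was 28.7, 8.0 and 32.7 CPM in vehicle mice 1, 3 and 4 and 62.4, 41.3, 27.6 and 68.8 CPM in treated mice 1 to 4. Treated mouse 3 lay inside the vehicle range and the others above it. Within monocytes the change of 1.33 ± 0.42 did not pass (edgeR adjusted p = 0.0589), where 5.45% of genes were called. The difference from macrophages did, at -2.17 ± 0.40 (edgeR adjusted p = 0.000901), the 1 of 6 members called where 2.21% of genes were. Mertk in these monocytes was 51.6, 47.8 and 32.7 CPM in vehicle mice and 29.9, 33.8, 33.7 and 26.9 CPM in treated mice (-0.50 ± 0.33, edgeR adjusted p = 0.451). In blood, classical monocytes of vehicle mice had 0 Mertk UMIs in 36 cells. Free RNA of the ascites library held 63.2 CPM of Mertk and 78.1 CPM of Axl. Its level in this monocyte gate is not given here, and the part of free RNA or of stray macrophages in these Axl and Mertk values was not tested. Against migratory dendritic cells under the same rule, the macrophage change of Mfge8 was more negative by 2.50 (-2.50 ± 0.66, edgeR adjusted p = 0.0159), the 1 of 8 members called where 5.20% of genes were. The Mfge8 change within migratory dendritic cells is not given here. With HTODemux cells too few mice had 20 cells for either difference, and neither was refitted with a mouse left out.

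In spleen, macrophage-gated cells were few, 16, 6 and 9 in vehicle mice 1 to 3, and 1 and 6 in treated mice 3 and 4, so no test was made. Axl was 958.6, 594.4 and 916.0 CPM in these vehicle mice and 606.1 and 644.9 CPM in the treated mice. The treated values lay at the low end of the vehicle range, and that of mouse 3 is 1 UMI of 1 cell. Mertk was 289.1, 79.2 and 156.4 CPM in vehicle mice, from 19, 2 and 7 UMIs, and 0 in both treated mice. Their 17157 UMIs in all allow up to 174.9 CPM for a gene with a count of 0, a limit that most vehicle values do not reach. Timd4 was 91.3, 39.6 and 89.4 CPM in vehicle and 0 in both treated mice, from 6, 1 and 4 UMIs. Stab1, at 243.6 CPM or more in every ascites mouse, had 1 UMI in the 31 vehicle spleen macrophages. No macrophage, monocyte or dendritic cell class of spleen or blood had 2 mice of each arm with 20 cells, and with at least 10 cells no member was high enough to test in spleen dendritic cells or spleen classical monocytes. Itgav alone could be tested in blood non-classical monocytes, at -0.26 (edgeR adjusted p = 0.933).

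Of 77 other genes of uptake, chosen by role with earlier results of these data known, 65 were tested in ascites macrophages, 5 rose and 12 fell. Their median change was -0.04 on the log2 scale, beside 0.01 over all genes tested, of which 13.9% were called. Among other receptors, 4 of 15 fell and 1 rose. Itgb5, the β5 subunit that pairs with αV, fell from 133.8 ± 15.9 to 82.9 ± 7.63 CPM (SD, n = 4 each), a change of -0.67 ± 0.13 (edgeR adjusted p = 0.0024). Lrp1, a large endocytic receptor, fell by 0.54 on the log2 scale (edgeR adjusted p = 0.00628), the β2 integrin subunit Itgb2 by 0.60 (edgeR adjusted p = 0.0295) and Cd93 by 0.49 (edgeR adjusted p = 0.0295). Cd300lb, an activating receptor for phosphatidylserine, rose from 23.4 ± 1.46 to 60.3 ± 18.8 CPM, a change of 1.35 ± 0.20 (edgeR adjusted p = 0.000184).

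Among bridging molecules and opsonins, 2 of 11 fell and 1 rose. C1qa and C1qc, opsonins that are also gate markers, both fell by 0.48 on the log2 scale (edgeR adjusted p = 0.00147 and 0.00134), and Calr, the eat-me signal calreticulin, rose by 0.38 ± 0.10 (edgeR adjusted p = 0.016). Of 14 cargo handling genes 4 fell and 1 rose. Lipa, the lysosomal lipase, fell from 297.4 ± 39.7 to 163.4 ± 23.5 CPM, a change of -0.82 ± 0.13 (edgeR adjusted p = 0.000416), and the cholesterol exporter Abcg1 fell by 0.89 (edgeR adjusted p = 0.00637). The LC3 gene Map1lc3a fell by 1.02 and the mitochondrial carrier Ucp2 by 0.54 (edgeR adjusted p = 0.00888 and 0.00163), while the nuclear receptor Pparg rose by 1.09 ± 0.34 (edgeR adjusted p = 0.0376). Of 13 engulfment machinery genes the adaptor Crk fell by 0.72 (edgeR adjusted p = 0.0464) and the GTPase Rhog rose by 0.41 (edgeR adjusted p = 0.0203). Of 6 genes of restraint and shedding Adam10, a protease that sheds surface receptors, fell by 0.53 ± 0.13 (edgeR adjusted p = 0.0101). Of 6 genes of TAM signalling 1 rose and 0 fell, with a median change of -0.05.

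The same list in the Gpnmb subset gave 59 tested, 5 up and 8 down, with a median of -0.07 on the log2 scale, beside 8.85% of all genes called. Abcg1 (-1.30) and Map1lc3a (-1.18) had the largest falls, and Cd300lb (1.09) the largest rise (edgeR adjusted p = 0.00693, 0.0206 and 0.0119). In cDC1 41 were tested, 4 rose and 1 fell, no larger a share than the 15.7% of all genes called, with Cd14 at 1.05 (edgeR adjusted p = 0.00592) and Npc2, which carries cholesterol out of lysosomes, at -0.33 (edgeR adjusted p = 0.0174). In cDC2 47 were tested, 3 rose and 3 fell, beside 4.33% of all genes called. Tgm2, a transglutaminase that assists phosphatidylserine uptake, was at 1.72 (edgeR adjusted p = 0.000197), Cd300a at -0.85 and the CD47 receptor Sirpa at -0.71 (edgeR adjusted p = 0.00434 and 0.0184).

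Over 46 ascites sums of 1 mouse and class, in 8 classes, the genes most like Mertk among 5499 were Arg1 (Pearson r = 0.967), C3ar1 (0.959), Msr1 (0.946), Ctsb (0.943) and Trem2 (0.94), on log2(CPM + 10). Among those most like Axl were Fth1 (0.87), Prdx1 (0.869), Nupr1 (0.868) and Rab3il1 (0.86). These r values describe levels across cell classes of 1 library, whose sums share mice and free RNA, and carry no test.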

How the data were processed

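Per the submitters' processing notes the reads were processed with Cell Ranger 6.1.1 on mm10, and the deposited matrices hold whole-number UMI counts per gene and barcode with no normalization by the authors. Barcodes under 200 genes or under 500 UMIs, or with a mitochondrial share above 10%, were dropped. Mice were assigned with HTODemux (Seurat 5.3.0, quantile 0.99), and barcodes called doublets or negative were left out. The hashtag fraction rule (20 or more hashtag UMIs, 80% or more of them from a single tag) was the alternative. No further doublet caller was run, so doublets within 1 mouse remain. Cells with at least 1500 UMIs were gated by the highest scaled marker score (minimum 0.25, margin 0.1; subsets 0.2 and 0.05), and 62 of 806 macrophage candidates lay near the margin.

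Counts were summed per mouse and class with at least 20 cells and tested with edgeR 4.0.16 (quasi-likelihood, robust, TMM, filterByExpr) in R 4.3.3, with Benjamini-Hochberg adjustment over all genes and a threshold of 0.05. Fold changes are treated over vehicle, and SEs come from the F statistic. Differences between classes were tested as class by arm interactions with the mouse as a block. Replicates are mice by the hashtag notes, and all mice of a tissue share 1 library, so library and free RNA are common to the arms. The free RNA level in a class was scaled by its C1q counts. Intervals and limits from 3 UMIs cover counting error only. The script was tested on simulated data.

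Alternatives were the hashtag rule, 5% mitochondrial UMIs, 10 or 50 cells, no low-count filter, DESeq2 1.42.0 size factors and Wald test, a stricter gate, a gate on C1q alone, a mouse number block, per-cell weights and leaving out each mouse. Mice were left out only where the planned main fit ran, and in the Gpnmb against Cx3cr1 difference. The Gpnmb against Cx3cr1 comparison and the fraction rule with 10 cells were added after seeing the data. The members and lists were chosen with earlier results of these data known. All 9 members are named in every class tested, and of the other uptake genes up to 4 per group and direction with the largest change in macrophages and up to 2 per direction elsewhere; some genes that this rule names are not reported here. Figures used matplotlib 3.10.9.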

Additional observations from a re-analysis of the deposited data

Results flagged for a closer look

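In 4 of 38 groups of 4 mice looked at, 1 mouse stood far from the other 3, where chance gives about 1 in 20. Axl in cDC2 of vehicle mouse 4 was 45.8 CPM, against 7.40 to 13.5 CPM in the other vehicle mice. Axl in macrophages of vehicle mouse 2 was 101.9 CPM, below the 135.0 to 138.6 CPM of the others. Itgav in cDC1 of treated mouse 3 was 30.19 CPM, above 15.9 to 17.6 CPM in the others. Stab1 in macrophages of vehicle mouse 4 was 243.6 CPM, below 329.3 to 341.5 CPM in the others.

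A difference in the effect of treatment between cell classes was called for 3 members by edgeR's interaction test. The macrophage change of Timd4 minus that in cDC1 was -4.99, and minus that in cDC2 -4.3, on the log2 scale (edgeR adjusted p = 0.0285 and 0.00978). Under the hashtag fraction rule the macrophage change of Mfge8 differed from that in migratory dendritic cells by -2.5 (edgeR adjusted p = 0.0159) and that of Axl from classical monocytes by -2.17 (edgeR adjusted p = 0.000901). The Axl change in Gpnmb macrophages differed from that in Cx3cr1 macrophages by -1.51 (edgeR adjusted p = 2.97e-05).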

How the results depend on the processing

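The 5 calls in macrophages held under the hashtag fraction rule, DESeq2 size factors, the DESeq2 Wald test, the stricter gate, the C1q gate and no low-count filter. They came to 2 (Mertk and Itgav) with at most 5% mitochondrial UMIs or at least 50 cells. With 1 mouse left out 3 or 4 members were called (3 without treated mouse 4). Without treated mouse 3 the 4 include Timd4, which is not among those 5 calls, while Gas6 and Mfge8 were lost. In cDC1 0 members were called with no low-count filter and with the stricter gate, and 0 to 1 with a mouse left out. In cDC2 the count was 0 with at least 10 cells, with the DESeq2 Wald test (which gave Timd4 an unadjusted p of 0.000173 and no adjusted p) and with the stricter gate, and 0 to 2 with a mouse left out. The macrophage difference from cDC1 gave 0 to 2 and from cDC2 0 to 2 with a mouse left out, and 2 from cDC2 under the fraction rule. The Gpnmb against Cx3cr1 difference gave 0 with at least 10 HTODemux cells and 1 to 2 with a mouse left out, and the Cx3cr1 subset gave 1 with at least 10 cells under the fraction rule. With each cell weighted equally, Axl in macrophages was -0.63 (exact permutation p = 0.0571, two-sided) and Mertk -0.98 (exact permutation p = 0.0286, the smallest possible).

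Mouse numbers did not pair the samples (correlations of same-numbered mice -0.065 to 0.09). With the replicate block the count in cDC2 was 2, with Axl at 1.78, and Mfge8 there was -0.22, while the counts in macrophages, cDC1 and the Gpnmb subset did not move.

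No member was called under a setting that changed its sign. Stab1 was -0.15 in macrophages with at least 50 cells, 0.02 in cDC1 under the fraction rule (-0.22 to 0.1 with a mouse left out), and -0.17 under the fraction rule and -0.03 with at least 10 cells in cDC2 (-0.19 to 0.37). It spanned -0.09 to 0.17 in the Gpnmb subset. Mfge8 in cDC2 was -0.02 without the low-count filter and -0.13 to 0.19 with a mouse left out. In the Cx3cr1 subset with at least 10 HTODemux cells Axl was -0.18, Stab1 -0.2 and Pros1 0.41, and Axl was -0.15 with 10 cells under the fraction rule. Timd4 in vehicle macrophages against cDC1 spanned -0.12 to 1.24 and was called at the upper value. In the difference from cDC2 under the fraction rule Gas6 was -0.37, Stab1 0.28 and Pros1 -0.44, and with a mouse left out Stab1 spanned -0.55 to 0.04 and Pros1 -0.7 to 1.36. The cause was not tested.

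Genes called under the fraction rule were 2149 against 1093 in macrophages, 1446 against 469 in the Gpnmb subset, 513 against 217 in cDC2, and 694 against 402 and 391 against 127 for the differences from cDC1 and cDC2. The DESeq2 Wald test called 521 against 808 genes in cDC1 and 97 in cDC2, and the stricter gate 489 in cDC1. With at least 10 HTODemux cells 100 against 401 genes were called in migratory dendritic cells, 69 against 240 in classical monocytes and 5 against 31 in the subset difference, which had 11 with at least 20 cells under the fraction rule. The Cx3cr1 subset gave 134, 70 and 317 with 20 cells, 10 HTODemux cells and 10 cells under the fraction rule. Over all members and classes, 182 values kept their side under other settings, 10 lost the call, 3 gained it and 13 changed sign. A minimum of 50 cells in cDC1 and cDC2, and tests in the Lyve1 and Prg4 subsets and in spleen macrophages, were not run for lack of cells. Values of a few CPM in classes of under 20 cells rest on single UMIs, and a fall there was not detectable at this depth.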
